A study of Mus musculus with 1183 samples.

Results

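The B cells of the neonatal mouse lung are described here in single-cell RNA-seq of immune cells taken after hyperoxia, a raised level of oxygen. The class holds the 65 cells that the labels name as B cell, of 1183 cells in all, and each sample of the series is 1 cell. Cells came from the distal lung of 1 female and 1 male mouse at postnatal day 7 and were sorted by flow cytometry into wells of plates. Libraries were made with the Tn5 transposase, an enzyme that cuts cDNA and adds sequencing adapters. All cells had been exposed to hyperoxia, so no effect of oxygen was estimated, and samples kept in normal air were not analysed here. The labels give no strain, genotype or oxygen level. The labels place the cells in 16 subtypes, of which T cells (46 cells), DC I (40 cells) and DC II (25 cells, where DC stands for dendritic cell) serve below as the closest comparisons.

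All 65 B cells had been sorted as CD45-positive, that is, by a protein that leukocytes carry on their surface. The female gave 39 of them, 12 from plate 1 and 27 from plate 2, and the male gave 26, 15 from plate 1 and 11 from plate 2. Female plate 1 was sequenced in run DC28 and the other 3 plates in run DC35. Depth per B cell ran from 88746 to 3876133 reads, with a median of 1290060, and the other 1118 cells had a median of 1091598. The labels name no molecular identifiers, so intervals and limits below cover counting error only. There is 1 animal of each sex, so values of the 2 animals are set side by side and no test between them was made.

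B cells recognise antigen through membrane immunoglobulin, which signals through the partner proteins CD79A and CD79B. They develop from precursors that first carry a surrogate light chain, then rearrange a kappa or lambda light chain gene, leave the bone marrow as immature cells and mature into naive cells with IgM and IgD. Mature B cells can also present antigen on class II molecules of the major histocompatibility complex (MHC), and after activation they can become antibody-secreting plasma cells.

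The label was checked against 3 markers of B cells, Cd79a, Cd79b and Ms4a1 (the CD20 protein). A gene was counted as present in a cell at 50 CPM or more, where CPM is the count scaled to the total of the cell or of the summed library. All 3 markers were present in 53 cells and 2 of them in 7 cells. The other 5 cells, 2 of the female and 3 of the male, all from plate 2, had none or 1 of the B cell markers and all 4 T cell markers searched. These markers are Cd3d, Cd3e and Cd3g, chains of the T cell receptor complex, and Lck, a kinase of that receptor. Cd79a and Ms4a1 had no reads in any of the 5, whereas Cd3g stood at 859.1 to 1744 CPM. One of them held Cd8a at 1215 CPM, another Cd4 at 254.3 CPM, and another Foxp3, the regulatory T cell factor, at 510.3 CPM. All 5 had Ighm reads, at 553.7 to 1190 CPM, but Ighm was also present in 34 of the 46 cells labelled T cell. The data therefore go against the label for these 5 cells, and results that rest on them are given with and without them. Of the other 60 cells, 37 were from the female and 23 from the male.

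**Figure D1:**
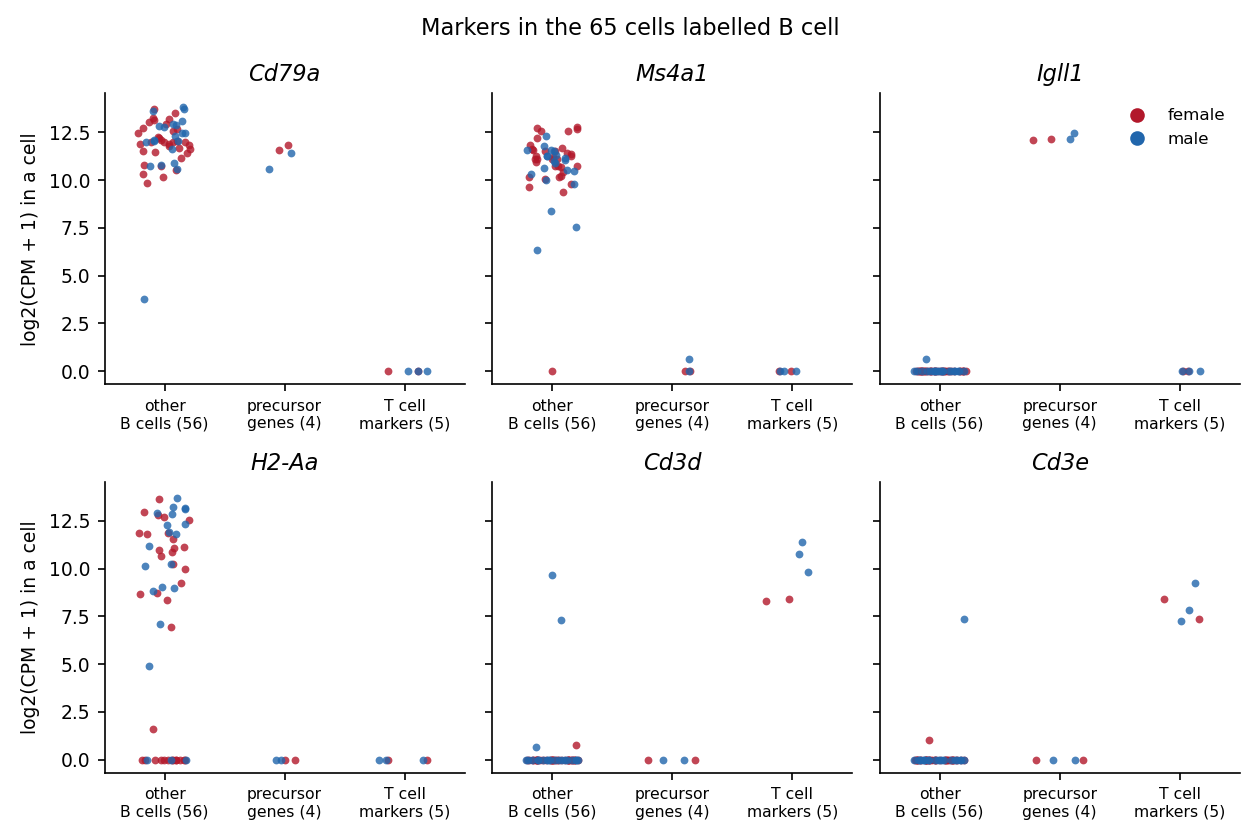
Level of 6 genes in each of the 65 cells labelled B cell, as log2(CPM + 1) on the vertical axis. Cells are placed in 3 columns, 56 other B cells, 4 cells with genes of B cell precursors and 5 cells with T cell markers, points are single cells coloured by animal, and points are spread sideways only to show them apart. The 5 cells with T cell markers have no Cd79a or Ms4a1, and the 4 cells with precursor genes carry Igll1 and no H2-Aa.

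Markers of most other cell types were sparse in the class. The exception was the list of plasmacytoid dendritic cells (Siglech, Bst2, Tcf4 and Ly6d), of which 44 cells held at least 2 genes and 61 at least 1, with a summed level of 3964 and 4452 CPM in the female and the male. Its defining gene Siglech had no read in any B cell, and Ly6d, which B cells also express, made up most of that level. That list was therefore left out of the count that follows. At least 2 markers of 1 other cell type were present in 17 cells, including the 5 above. The other 12 of these cells also held all 3 B cell markers. The lists in that count were T cell in 7 cells, macrophage and monocyte in 6, NK cell and epithelium in 2 each, and neutrophil, red blood cell, endothelium and mesenchyme in 1 each. No cell had 2 markers of classical dendritic cells or of mast cells and basophils. The summed level of the 6 macrophage and monocyte markers was 1282 and 1289 CPM in the female and the male, with the marker Chil3 at 0 reads. The summed neutrophil markers reached 31 and 2323 CPM in the female and the male, and 1 cell had at least 2 of them. Cells with all 3 B cell markers also occurred outside the class, in 5 of 1118 cells. Among them, a cell labelled mast cell held the mast cell marker Cpa3 at 19963 CPM beside Cd79a at 1486 CPM. A cell labelled neutrophil held S100a8 at 36731 CPM beside Cd79a at 1925 CPM. Whether such wells held 2 cells was not tested.

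To compare B cells with other cells, reads were summed over the cells of each subtype and animal, and edgeR's quasi-likelihood test was run over 30 such libraries from 15 subtypes and 15600 genes, with Benjamini-Hochberg adjustment. The log level of B cells was set against the average log level of the other 14 subtypes. Because the labels probably rest on expression of these same cells, these calls describe the labelled class and are no independent evidence for it. At an adjusted p under 0.05, 1574 genes were higher (10.1%) and 37 lower in B cells. Since genes that are silent in several subtypes pull that mean down, a gene is called higher or lower below only if it also lay on that side of all other cells of the same animal pooled, in both animals. That left 773 genes higher (4.96% of all genes tested) and 37 lower (0.237%). Without the 5 cells with T cell markers the corresponding counts were 743 (4.78%) and 48 (0.309%). The median log2 fold change over all tested genes was 0.30. The share of calls that were higher in B cells was 97.7%, against 31.4% when B cells were tested against the pooled other cells and 67.2% with DESeq2. Without the female B cell library 884 genes were called in either direction and without the male library 872, of 1611 with both. In those fits the lone B cell library was assumed to vary like the other groups.

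All 8 chains of the B cell receptor that were tested, Cd79a, Cd79b, Ighm, Ighd, Igkc and Iglc1 to Iglc3, were higher in B cells, with a median log2 fold change of 14.12. Cd79a stood at 2621, 4419, 3921 and 5692 CPM in female plates 1 and 2 and male plates 1 and 2. The mean over the 2 animals was 4277 ± 639.4 CPM (SD, n = 2), against 3.19 CPM in the other cells of the female and 5.3 CPM in those of the male. All 4 plates were far above the pooled other cells, and the log2 fold change was 14.15 ± 1.40 (SE, adjusted p = 1.2e-05 by edgeR). Cd79a was present in 59 of the 60 cells without T cell markers, at 12.5 to 14628 CPM with a median of 4074, and in 0.894% of the other cells. Cd79b, its partner, stood at 2456, 3633, 3476 and 4833 CPM in the same plates, against 32 and 28.1 CPM in the other cells of the female and the male.

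Ighm, the constant part of the IgM heavy chain, stood at 9593, 7192, 5793 and 4491 CPM in female plates 1 and 2 and male plates 1 and 2. The other cells of the female held 132.98 CPM and those of the male 132.1 CPM. The log2 fold change of Ighm was 6.48 ± 0.78 (SE, adjusted p = 1.7e-05 by edgeR), smaller than for the other receptor chains named here, and T cells had the next highest level, 915.8 CPM. Ighd, the constant part of the IgD heavy chain, stood at 436.2, 552.4, 449.7 and 262.01 CPM in the 4 plates, against 1.33 and 3.36 CPM in the other cells. Ighd was present in 45 of the 60 cells, and 11 had no Ighd read. As a share of Ighm and Ighd reads together, not corrected for length, Ighd made up a median of 4.72% and at most 46.8% in a cell. In none of the 65 cells did Ighd reads exceed Ighm reads, which allows a share of up to 4.62%. The constant genes of IgG, IgA and IgE were not analysed here.

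Ms4a1, the other identity gene, stood at 1741, 2080, 1419 and 1358 CPM in female plates 1 and 2 and male plates 1 and 2, against 3.54 and 2.76 CPM in the other cells. Its log2 fold change was 13.83 ± 1.06 (SE, adjusted p = 8.3e-07 by edgeR). All 4 plates were above the pooled other cells of both animals, though a single cell labelled mast cell held Ms4a1 at 2216 CPM. Over the 30 libraries, the 5 genes of 9833 whose log2 level followed Cd79a most closely were Iglc2, Ms4a1, Iglc1, Igkc and Fcmr, with Pearson r of 0.971, 0.968, 0.961, 0.960 and 0.958. These are descriptive values over libraries that share plates and animals.

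Of 14 genes that carry the receptor signal inward, 7 were higher in B cells (Syk, Blk, Btk, Blnk, Cr2, Bank1 and Prkcb) and none lower, with a median log2 fold change of 2.15. Blnk, the adaptor that links the receptor's kinases to downstream enzymes, stood at 1021, 289.8, 558.4 and 288.4 CPM in female plates 1 and 2 and male plates 1 and 2, against 17.6 and 18.1 CPM in the other cells. It was present in 67.7% of B cells and 6.17% of other cells, and its log2 fold change was 9.51 ± 0.68 (SE, adjusted p = 6.9e-08 by edgeR). Blk, a kinase of the Src family, stood at 244.9 and 202.3 CPM in the female and the male, against 1.03 and 0.28 CPM. Among kinases used by other blood cells, Btk was 1.93 and 2.31 times and Prkcb 3.27 and 4.54 times the level of the other cells in the female and the male, and Syk differed little. Syk stood at 217.46 ± 4.88 CPM (SD, n = 2) in B cells, against 179.8 CPM in the other cells of the female and 189.8 CPM in those of the male. Against the pooled other cells, Syk, Btk, Bank1, Prkcb and Cr2 did not pass the test (adjusted p = 0.608, 0.13, 0.0614, 0.0562 and 0.379), and DESeq2 did not call Cr2 (adjusted p = 0.302). Without the female B cell library Syk, Btk and Cr2 were not called (adjusted p = 0.0873, 0.1 and 0.162), and Syk was not called without the male library (adjusted p = 0.124).

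Of 8 genes that restrain the receptor, 4 were higher in B cells, the lectins Siglecg and Cd22 of the Siglec family, Cd72 and Cd5. Siglecg stood at 902.4 and 553.0 CPM in the female and the male, against 22.9 and 23.1 CPM in the other cells, with a log2 fold change of 7.43 ± 1.22 (SE, adjusted p = 4.7e-04 by edgeR). Cd72 stood at 313.3 and 208.4 CPM against 13.8 and 17.6 CPM, and Cd22 at 189.3 and 127.2 CPM against 24.3 and 30.4 CPM. Cd22 differed among plates, at 63.2, 251.5, 140.7 and 111.3 CPM in female plates 1 and 2 and male plates 1 and 2, and was present in 28 cells. The phosphatase gene Ptpn6 stood at 915.8 and 730.0 CPM against 515.2 and 315.9 CPM and did not pass the test (adjusted p = 0.409). Cd5 was the weakest call, at 37.2 and 79.9 CPM against 15.1 and 22.1 CPM. Cd5 did not pass against the pooled other cells (adjusted p = 0.133), without the female library (adjusted p = 0.0518) or without the male library (adjusted p = 0.236).

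Promoters of the listed B cell genes were searched for the octamer ATGCAAAT, read on both strands and bound by POU factors such as POU2F2, and for a palindromic core of the EBF1 site, TCCC and GGGA separated by 2 bases of any kind. Of 67 genes listed, 48 had a RefSeq promoter (build GRCm38.p6), with 69 promoters in all, each taken as the 250 bases before the start. The octamer occurred in those of Blnk, Prkcb and Vpreb3, against 526 of 32851 promoters (1.6%) in the whole table. The EBF core occurred in those of Cd22 and Foxo1, against 0.779% of all promoters. The sequences of Vpreb3, Blnk and Cd22 are shown because these genes were among those higher in B cells. That of Cd79a is shown because it is a defining gene of the class, with no exact match to either motif in this window. Capitals mark the motif, and each sequence runs 5′ to 3′ on the strand of its gene.
Vpreb3, chr10:75948050-75948299, plus strand: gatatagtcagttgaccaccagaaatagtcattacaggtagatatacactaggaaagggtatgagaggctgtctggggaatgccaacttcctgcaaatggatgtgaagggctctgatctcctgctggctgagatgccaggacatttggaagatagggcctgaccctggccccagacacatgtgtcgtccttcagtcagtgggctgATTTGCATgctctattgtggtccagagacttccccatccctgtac
Blnk, chr19:40994222-40994471, minus strand: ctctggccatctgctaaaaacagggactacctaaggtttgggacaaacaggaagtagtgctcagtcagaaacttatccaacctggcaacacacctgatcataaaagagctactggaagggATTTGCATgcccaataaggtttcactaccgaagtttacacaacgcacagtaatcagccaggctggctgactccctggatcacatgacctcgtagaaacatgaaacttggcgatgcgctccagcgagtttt
Cd22, chr7:30879029-30879278, minus strand: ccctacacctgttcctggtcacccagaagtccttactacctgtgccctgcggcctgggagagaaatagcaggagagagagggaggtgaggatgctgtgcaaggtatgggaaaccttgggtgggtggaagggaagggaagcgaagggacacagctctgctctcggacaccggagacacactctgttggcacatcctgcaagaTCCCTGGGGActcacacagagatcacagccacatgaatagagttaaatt
Cd79a, chr7:24897247-24897496, plus strand: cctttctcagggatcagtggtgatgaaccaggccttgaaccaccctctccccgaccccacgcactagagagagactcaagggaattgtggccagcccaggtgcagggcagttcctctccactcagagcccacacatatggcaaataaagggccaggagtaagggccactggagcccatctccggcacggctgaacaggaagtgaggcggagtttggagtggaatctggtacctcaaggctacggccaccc
In Vpreb3 the octamer lay 45 to 38 bases before the start, and in Blnk it began 130 bases before it. In Cd22 the EBF core lay 49 to 40 bases before the start. A match is a description of the letters and does not show that a factor was bound. Only exact matches were searched, so a window without one may still hold a variant of the site.

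The light chain genes gave a less simple picture than the heavy chain. Igkc, the constant gene of the kappa chain, stood at 3557, 4454, 5308 and 5138 CPM in female plates 1 and 2 and male plates 1 and 2, against 3.61 and 6.1 CPM in the other cells. The lambda constant genes Iglc1, Iglc2 and Iglc3 stood at 1931, 1692 and 1217 CPM in female B cells and at 1732, 1896 and 1557 CPM in male ones. Iglc1 to Iglc3 are near-identical copies, so the split of reads among them is uncertain. A cell was assigned to kappa or lambda if 90% or more of at least 50 constant gene reads were of that kind. By this rule 4 cells were kappa, 8 lambda, 44 mixed and 9 had too few reads, 5 of which were the cells with T cell markers. At 80% of the reads, 9 cells were kappa and 10 lambda, and at 95% none was kappa and 5 were lambda.

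The variable genes, which were examined after the constant genes had been seen, separated the cells more clearly. The counts cover 50 kappa and 3 lambda variable genes, so a cell that used another gene could be misassigned or left without a class. By the same rule on variable gene reads, 37 cells were kappa, 11 lambda, 6 mixed and 11 had too few reads. All 37 kappa cells nonetheless held at least 50 reads of lambda constant genes, 26 of them with no lambda variable read at all. Lambda genes made up 5.57% to 78.3% of the light chain constant reads in these kappa cells, with a median of 39.5%, not corrected for length. In the 11 lambda cells they made up 39.3% or more, with a median of 94.6%. The median level of Igkc was 6207 CPM in kappa cells and 636.0 CPM in lambda cells, and that of Iglc1 was 1070 and 4942 CPM. The ranges of the 2 classes overlapped on the constant genes. Some lambda cells had no kappa variable read but held Igkc at 8066, 3138 and 11291 CPM, so their class is uncertain. The source of the lambda constant reads in kappa cells was not tested.

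**Figure D2:**
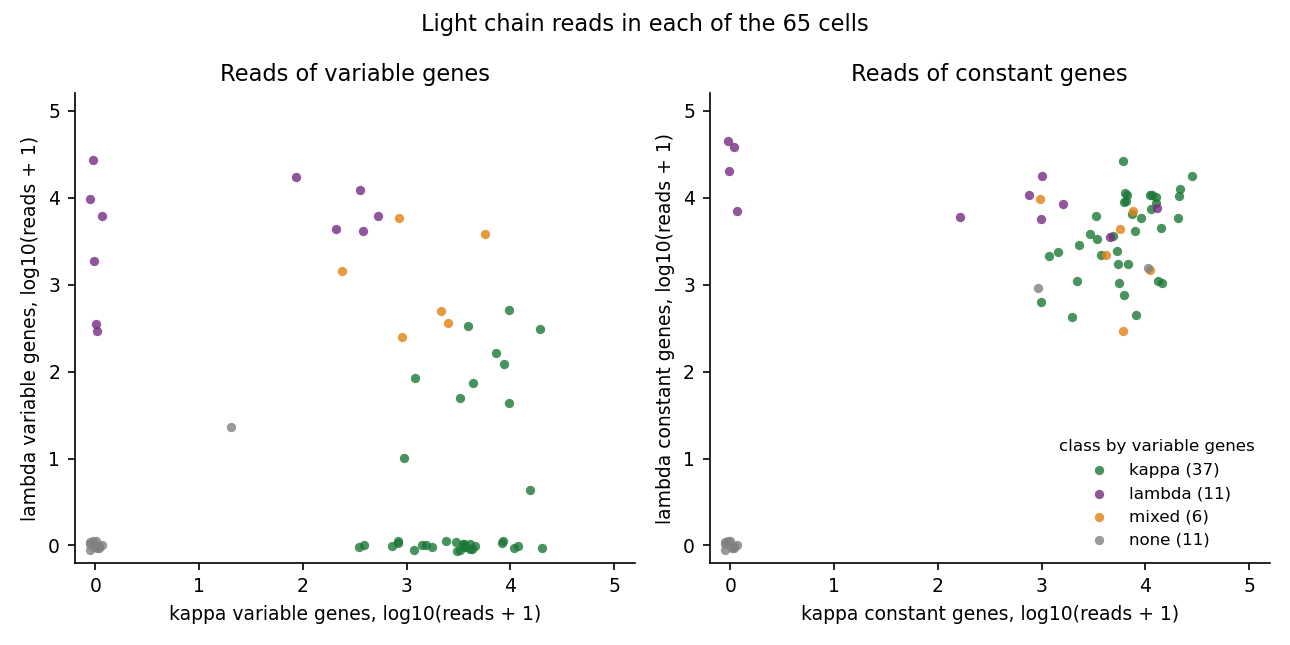
Kappa reads (horizontal axis) and lambda reads (vertical axis) of each B cell, as log10(reads + 1), for variable genes on the left and constant genes on the right. Points are cells coloured by their class from variable genes, with a small sideways shift at 0. On the left the 37 kappa and 11 lambda cells lie on opposite sides of the line of equal reads, which follows from the rule for the classes. On the right all 37 kappa cells have 50 or more lambda reads.

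Where a chain had enough variable gene reads, a single gene usually took most of them. Among 39 cells with at least 50 heavy chain variable reads, 1 gene took 90% or more of them in 31 cells. For kappa this held in 30 of 48 cells with as many reads and for lambda in 22 of 25. The leading heavy chain gene was 1 of 22 different genes, of 36 in the counts, and Ighv1-18, Ighv1-19, Ighv8-8 and Ighv10-1 each led 4 cells. The leading kappa gene was 1 of 24, of 50 in the counts, with at most 5 cells led by the same gene. The leading lambda gene was Iglv1 in 14 cells, Iglv3 in 9 and Iglv2 in 2. Of the 1118 other cells, 12 held 50 or more heavy chain variable reads, 5 kappa and 2 lambda. Near-identical variable genes share reads, so the assignment of single genes is uncertain.

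The factors that set up and hold B cell identity were higher in the class. Of 18 transcription factors listed, 12 were higher in B cells (Pax5, Ebf1, Spib, Pou2af1, Pou2f2, Bach2, Ikzf3, Irf4, Bcl11a, Foxp1, Lef1 and Klf2) and none lower, with a median log2 fold change of 3.31. Without the 5 cells with T cell markers, Tcf3 was also called (adjusted p = 0.041, against 0.0622 with them). Pax5, the factor that commits precursors to the B lineage, stood at 253.3, 356.97, 328.6 and 146.8 CPM in female plates 1 and 2 and male plates 1 and 2, against 0.405 and 0.255 CPM in the other cells. Its log2 fold change was 11.66 ± 0.89 (SE, adjusted p = 2.0e-07 by edgeR), and it was present in 47 cells. Ebf1, which acts with PAX5 early in the lineage, stood at 812.2, 390.8, 435.3 and 187.5 CPM in the 4 plates, against 0.694 and 0.868 CPM. Spib, an ETS factor, stood at 766.5 and 487.3 CPM in the female and the male, against 4.31 and 4.62 CPM.

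Factors shared with other blood cells differed less. Foxp1, needed in early B cell development, stood at 998.3 and 806.8 CPM against 242.1 and 181.04 CPM, with a log2 fold change of 1.81 ± 0.39 (SE, adjusted p = 0.00315 by edgeR). Klf2, which favours a resting state in lymphocytes, stood at 326.6 and 364.5 CPM against 219.3 and 180.5 CPM. Pou2f2, Bach2, Irf4, Lef1 and Klf2 did not pass against the pooled other cells (adjusted p = 0.0553, 0.0796, 0.0749, 0.103 and 0.126). Without the female library, Foxp1, Klf2, Irf4 and Bach2 were not called (adjusted p = 0.1, 0.0849, 0.0571 and 0.24), and without the male library Klf2, Irf4 and Bach2 were not (adjusted p = 0.161, 0.127 and 0.25). DESeq2 did not call Pou2af1 or Bach2 (adjusted p = 0.223 and 0.063), and among cells of run DC35 Klf2 and Bach2 were not called (adjusted p = 0.0894 and 0.0769).

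A small group of cells carried genes of B cell precursors. Of 11 precursor genes tested, 9 were higher in B cells (Rag1, Igll1, Vpreb1, Vpreb2, Vpreb3, Il7r, Myb, Lef1 and Arpp21), with a median log2 fold change of 6.55. Cells were counted as carrying precursor genes if at least 2 of 5 searched genes (Rag1, Rag2, Igll1, Vpreb1 and Vpreb2) were present. This held for 4 cells, 2 from female plate 1 and 2 from male plate 1, or 6.15% of the class (exact 95% interval 1.7% to 15%). Because the 4 cells were chosen by these genes, their contrast with the other B cells in them follows in part from the rule. Igll1, the constant part of the surrogate light chain, stood at 4340, 4532, 5600 and 4498 CPM in these 4 cells and at no more than 0.531 CPM in the 56 other B cells. Vpreb1, its variable part, stood at 2244, 1741, 886.6 and 403.9 CPM in the 4 cells and had no read in the other 56. Rag1, a subunit of the enzyme that rearranges receptor genes, stood at 101.1 and 141.5 CPM in 2 of the 4 and had no read in the other 2. Among the 56 other B cells, 1 held Rag1, at 180.5 CPM. Among the 4 cells with precursor genes, Ms4a1 was at 0.557 CPM in 1 and at 0 in 3, and all 4 had no H2-Aa, Cd74 or light chain read. Ighm stood at 2881, 8004, 3313 and 776.2 CPM in them, so all 4 had reads of the heavy chain constant gene without light chain reads. Their heavy chain variable reads numbered 3, 1, 370 and 0, so a rearranged heavy chain was not shown for all 4.

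These 4 cells carried nearly all reads of Igll1 and Vpreb1 in the class, genes by which they had been chosen. Summed over plates, Igll1 reached 1107 CPM in female plate 1 and 936.1 CPM in male plate 1, and had no read in either plate 2. Its log2 fold change over the other subtypes was 16.27 ± 0.91 (SE, adjusted p = 2.0e-06 by edgeR). DESeq2 did not call Igll1, Vpreb1, Vpreb3 or Il7r (adjusted p = 0.0734, 0.18, 0.0595 and 0.0758). Rag1, Lef1, Myb, Arpp21 and Il7r did not pass against the pooled other cells (adjusted p = 0.0843, 0.103, 0.202, 0.227 and 0.433). Il7r, the receptor for a growth factor of precursors and T cells, was also not called without the 5 cells with T cell markers (adjusted p = 0.164), in run DC35 alone (0.399), after thinning to 100000 reads (0.121), or without the female (0.2) or male (0.221) library. Vpreb3 was also present in 24 of the 56 other B cells, at up to 11727 CPM, and 18 of those 24 also held Ighd.

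All of the 56 other B cells held at least 50 light chain reads. All 12 genes examined of the immature and naive list were higher in the 65 B cells summed, with a median log2 fold change of 7.51, though single cells held few of some of them, and Cr2 was present in only 2 cells. Tnfrsf13c, the receptor for the survival factor BAFF, stood at 1058, 673.4, 512.6 and 920.3 CPM in female plates 1 and 2 and male plates 1 and 2, against 1.57 and 3.11 CPM in the other cells. Its log2 fold change was 11.39 ± 1.00 (SE, adjusted p = 9.2e-07 by edgeR). Ly6d, a surface marker acquired on entry to the B lineage, stood at 3617 and 4143 CPM in the female and the male, against 4.32 and 6.66 CPM. Fcmr, a receptor for IgM, stood at 531.6 and 768.2 CPM against 0.35 and 1.42 CPM. Cd24a, high in immature B cells, was uneven among plates, at 3467 CPM in female plate 1 and 502.9, 971.0 and 585.2 CPM in female plate 2 and male plates 1 and 2. Fcer2a (CD23), a marker of mature follicular B cells, was present in 10 of the 56 cells and Cd93, a marker of immature ones, in 12, with 3 cells holding both. By plate, Fcer2a stood at 0, 110.2, 119.2 and 0 CPM. Fcer2a, Cd93, Ccr7, Cxcr5 and S1pr1 did not pass against the pooled other cells (adjusted p = 0.12, 0.344, 0.0602, 0.0566 and 0.0614). Without the female library Cd24a was not called (adjusted p = 0.0885), and without the male library Cd93 was not (adjusted p = 0.0775).

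Genes linked to B-1 and marginal zone B cells were called in both directions. Of 11 tested, 4 were higher (Cd5, Bhlhe41, Zbtb32 and Mzb1) and 1 was lower (Cd9), with a median log2 fold change of 0.58. Mzb1, a chaperone of immunoglobulin assembly, stood at 1184, 1006, 920.5 and 709.2 CPM in female plates 1 and 2 and male plates 1 and 2, against 0.493 and 1.91 CPM in the other cells, and was present in 53 cells. Bhlhe41, a factor needed by B-1a cells, was uneven, at 137.1, 276.98, 902.4 and 389.9 CPM in the same plates. Its other cells held 144.9 and 266.6 CPM, mostly through Mac III at 540.7 CPM, and Bhlhe41 did not pass against the pooled other cells (adjusted p = 0.295). Bhlhe41 was present in 41 of the 56 B cells without precursor genes or T cell markers, and in 9 of the 10 of these that held Cd5. Zbtb32 was present in 14 of the 56, and those cells were deeper, with a median of 1717025 reads against 1019662 in the rest. Cd9, a tetraspanin, was lower in B cells, at 161.4 and 236.1 CPM against 2186 and 2365 CPM (log2 fold change -1.71 ± 0.33, SE, adjusted p = 0.00157 by edgeR). It was not called without the female library, where the log2 fold change was -1.45. Low Cd9 was not particular to B cells. T cells held it at 294.4 and 157.2 CPM, NK cells at 286.1 and 156.9 CPM, and the subtype labelled IL cell at 68.5 and 68 CPM. Mac III, by contrast, held Cd9 at 5424 and 5203 CPM.

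Among genes of homing and adhesion, 4 of 13 were higher in B cells (Cxcr5, Ccr7, Ccr6 and S1pr1) and 1 was lower (Cd44), with a median log2 fold change of 1.24. Cxcr5, the receptor that guides B cells to follicles, stood at 254.2, 244.1, 133.6 and 56.1 CPM in female plates 1 and 2 and male plates 1 and 2, against 5.22 and 0.937 CPM. Ccr7, a receptor for entry into lymph nodes, stood at 586.8 and 692.4 CPM in the female and the male, between the T cells at 2482 and 1798 CPM and the pooled other cells at 236.9 and 230.1 CPM. The highest level of Ccr7 was in DC III, at 6862 CPM. S1pr1, the receptor for exit from lymphoid organs, stood at 275.8 and 149.6 CPM against 55.2 and 54.7 CPM. S1pr1 was not called by DESeq2 (adjusted p = 0.08) or without the female (adjusted p = 0.339) or male (adjusted p = 0.0881) library, and Ccr6 did not pass against the pooled other cells (adjusted p = 0.0619). Cd44, a receptor for matrix hyaluronan, stood at 243.4 and 254.3 CPM against 1272 and 1189 CPM (log2 fold change -1.46 ± 0.43, SE, adjusted p = 0.0296 by edgeR). That call was lost among cells of run DC35 (adjusted p = 0.0817), when the 5 cells with T cell markers were left out (adjusted p = 0.0522), without the female library (adjusted p = 0.309) and without the male library (adjusted p = 0.232). In the fit without the 5 cells the integrin gene Itgb1 was lower in B cells instead (adjusted p = 0.00861, against 0.0539 with them).

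**Figure D3:**
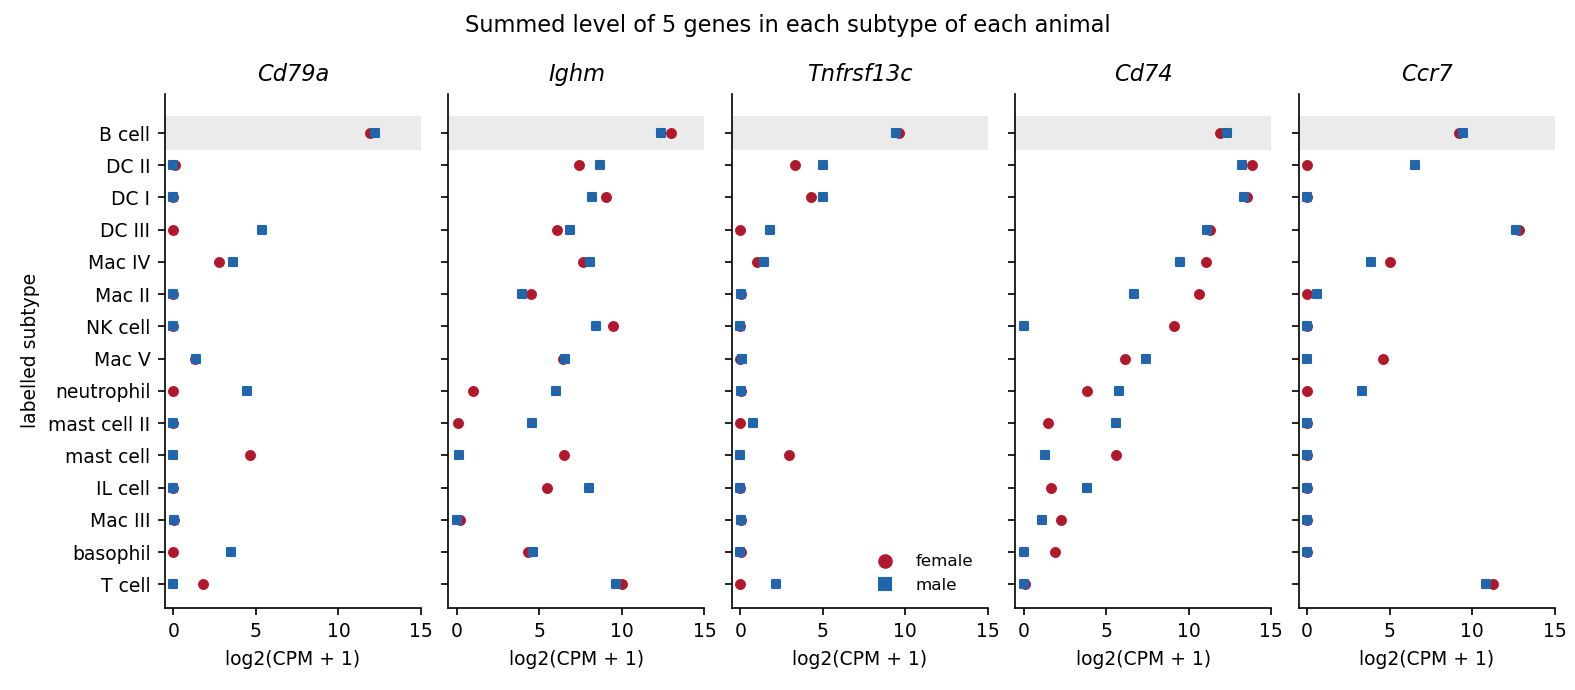
Level of Cd79a, Ighm, Tnfrsf13c, Cd74 and Ccr7 summed over the cells of each subtype and animal, as log2(CPM + 1) on the horizontal axis, with 1 point per animal and subtypes below B cells ordered by Cd74. B cells were highest for Cd79a, Ighm and Tnfrsf13c, and lay below DC I and DC II for Cd74 and below T cells and DC III for Ccr7.

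Of 16 cytokine and cytokine receptor genes tested, 7 were higher in B cells (Ltb, Lta, Tnfrsf13b, Tnfrsf13c, Cd40, Il21r and Il2rg) and none lower, with a median log2 fold change of 2.56. Ltb, a lymphotoxin chain that shapes lymphoid tissue, stood at 329.9, 958.7, 931.3 and 1718 CPM in female plates 1 and 2 and male plates 1 and 2, against 111.5 and 105.2 CPM in the other cells. T cells held Ltb at 996.0 and 1226 CPM, within the range of the B cell plates. Tnfrsf13b, a second receptor for BAFF (TACI), stood at 312.02 and 245.2 CPM against 57.7 and 49.6 CPM. The inflammatory cytokines Il6 and Tnf were at or near 0 in B cells. Il6 had no read in any B cell, against 232.8 and 159.02 CPM in the other cells, and Tnf stood at 2.25 and 0.897 CPM against 89.1 and 66.4 CPM (adjusted p = 0.0867). Il10 was present in 1 cell. Cd40, Lta, Il21r and Il2rg did not pass against the pooled other cells (adjusted p = 0.152, 0.0857, 0.0739 and 0.129). Without the female library Tnfrsf13b and Il21r were not called (adjusted p = 0.149 and 0.104), and without the male library Ltb, Tnfrsf13b, Il21r and Il2rg were not (adjusted p = 0.113, 0.0853, 0.0869 and 0.304).

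Of 10 genes of Toll-like receptor sensing, 4 were higher in B cells (Tlr9, Cd180, Ly86 and Unc93b1), with a median log2 fold change of 3.86. Cd180, a receptor related to TLR4, stood at 130.3 and 119.2 CPM against 30.9 and 20.8 CPM, and its partner Ly86 at 501.9 and 750.9 CPM against 204.03 and 288.97 CPM. Unc93b1, the chaperone of the nucleic acid sensors, stood at 670.7 and 487.1 CPM against 370.1 and 311.95 CPM. Among those sensors, Tlr9 stood at 8.12 and 21.2 CPM and Tlr7 at 17 and 5.91 CPM, and Tlr3 had no read in female B cells and 0.0309 CPM in male ones. Against the pooled other cells, Ly86, Unc93b1 and Tlr9 did not pass (adjusted p = 0.0898, 0.148 and 0.206). Unc93b1 was not called without the female library (adjusted p = 0.133) and Tlr9 was not without the male library (adjusted p = 0.108) or with cells thinned to 100000 reads (adjusted p = 0.0738).

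Of 10 activation genes, 2 were higher in B cells (Cd69 and Cd83), with a median log2 fold change of 2.26. Of 6 plasma cell genes, 1 was higher (Irf4, which activated and resting B cells also use), with a median of 3.19. Jchain and Tnfrsf17 passed the test over subtypes but did not lie above the pooled other cells in both animals. Among all genes tested, 4.96% were higher by the same rule. Cd69, an early activation and tissue retention marker, stood at 379.9, 284.1, 600.2 and 290.5 CPM in female plates 1 and 2 and male plates 1 and 2, against 203.6 and 63.3 CPM in the other cells, and was present in 39 cells. Cd69 did not pass against the pooled other cells (adjusted p = 0.155). Cd83 was not called by DESeq2 (adjusted p = 0.118), against the pooled other cells (adjusted p = 0.466) or without the female (adjusted p = 0.206) or male (adjusted p = 0.163) library. Sdc1 (CD138) and Prdm1 (BLIMP1), which mark plasma cells, stood at 0 and 0.278 CPM and at 0.659 and 1.18 CPM. Jchain, the joining chain of secreted IgM, was present in 1 cell, at 328.9 CPM.

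MHC class II genes were high in B cells as a class, and uneven among cells. Of 12 tested, 7 were higher than in the other subtypes (H2-Aa, H2-Ab1, H2-Eb1, Cd74, Ciita, H2-DMb2 and H2-Ob), with a median log2 fold change of 6.01, and H2-Oa was added without the 5 cells with T cell markers (adjusted p = 0.0437). Cd74, the invariant chain of class II, stood at 2251, 4662, 4913 and 5410 CPM in female plates 1 and 2 and male plates 1 and 2, against 1131 and 1036 CPM in the other cells, and was present in 55 of the 56 B cells without precursor genes or T cell markers. H2-Aa, a class II alpha chain, stood at 775.3, 1926, 2768 and 3081 CPM in the same plates, against 1171 and 1543 CPM, and was present in 38 of the 56 cells. H2-Aa in female plate 1 was thus below the other cells of the female. H2-Aa, H2-Ab1, H2-Eb1 and Ciita did not pass against the pooled other cells (adjusted p = 0.323, 0.521, 0.347 and 0.187). H2-Ob and H2-DMb2 separated B cells more clearly. H2-Ob, part of the H2-O regulator of peptide loading, stood at 272.5 and 307.6 CPM against 9.85 and 7.51 CPM, and H2-DMb2, a chain of the loading factor H2-M, at 381.1 and 453.1 CPM against 34.1 and 20 CPM.

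Other parts of the same pathway were low. H2-DMb1 stood at 22.4 and 37.8 CPM in B cells against 160.1 and 150.2 CPM in the other cells, and Ctss, the protease that trims the invariant chain, at 392.5 and 454.2 CPM against 2914 and 3207 CPM. Neither passed the test over subtypes (adjusted p = 0.604 and 0.887), where the fitted log2 fold changes were 1.66 and 0.97. Against the pooled other cells both were lower in B cells, with log2 fold changes of -2.36 (adjusted p = 0.0494) and -2.86 (adjusted p = 0.0184). H2-DMb1 and H2-DMb2 are close relatives, and reads shared between them could have been split or dropped.

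Beside the dendritic cells, class II levels in B cells were lower in value, but no class II gene was called by edgeR. Of 12 genes, 1 had an unadjusted p under 0.05, DESeq2 called 1 as lower in B cells, and the median log2 difference was -2.25. Cd74 stood at 3866 and 5140 CPM in B cells of the female and male, against 11897 and 10558 CPM in DC I and 14616 and 9503 CPM in DC II. H2-Aa stood at 1546 and 2911 CPM in B cells, against 15948 and 16226 CPM in DC I and 11188 and 12885 CPM in DC II. The B cell libraries were below all 4 dendritic cell libraries for both genes. In a fit of the B cell, DC I and DC II libraries alone, H2-Aa and H2-Ab1 were lower in B cells (adjusted p = 0.0099 and 0.00496).

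Genes of the oxidant response were examined because of the exposure. Of 17 tested, none was called in either direction by edgeR, 2 had an unadjusted p under 0.05, both lower in B cells, and DESeq2 called 1 as higher and 2 as lower. The median log2 fold change was -0.50. Of 15 of these genes with 50 CPM or more, 4 were at least 4-fold lower in both animals than in the pooled other cells, as were 8.52% of all genes so compared. These were Hmox1, Gclm, Mt1 and Mt2. Hmox1 (haem oxygenase) stood at 25.2 CPM in B cells of the female and had no read in those of the male, against 1447 and 722.6 CPM in the other cells. Hmox1 was also low in T cells, at 31.2 and 16.9 CPM, and in NK cells, at 0 and 0.166 CPM. It was high in Mac III, at 2973 and 930.7 CPM, and in Mac IV, at 3744 and 1840 CPM. Its fitted log2 fold change was 1.22 and turned to -6.46 against the pooled other cells (adjusted p = 0.149) and to -10.67 without the female B cell library (adjusted p = 1), while DESeq2 called it as higher (adjusted p = 0.0167). Mt1, a metallothionein, stood at 4.34 and 18.6 CPM against 807.9 and 1210 CPM, and was called as lower only against the pooled other cells (adjusted p = 0.0341). Cdkn1a, which halts the cell cycle after damage, stood at 192.2 and 31.3 CPM against 556.2 and 915.8 CPM. Sod1, which removes superoxide, stood at 636.6 and 1375 CPM in B cells, and Gpx1, a glutathione peroxidase, at 1356 and 1530 CPM. No normoxic cells were compared, so these levels do not measure a response.

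**Figure D4:**
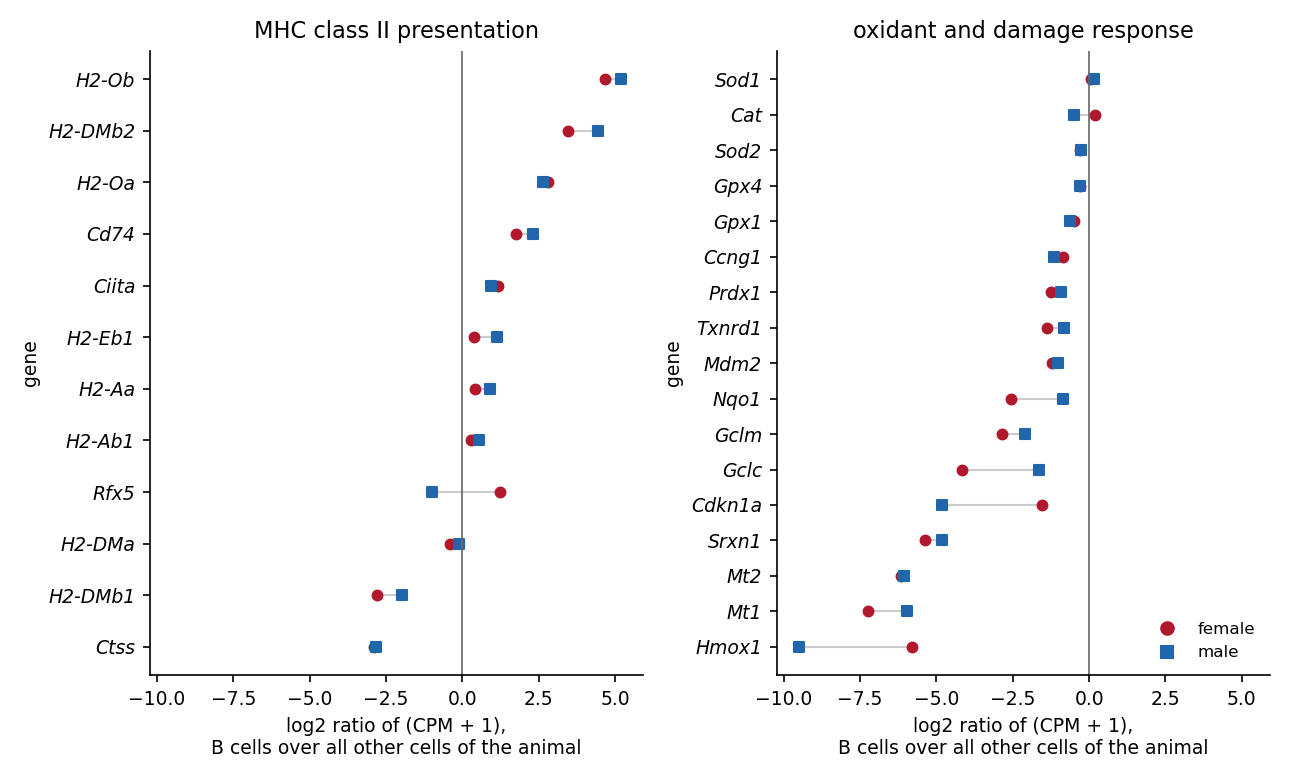
Log2 ratio of (CPM + 1) in B cells over all other cells of the same animal for 12 MHC class II genes and 17 oxidant genes, with 1 point per animal and a line at 0 for equal levels. H2-Ob and H2-DMb2 lie to the right in both animals, and Hmox1, Mt1, Mt2 and Gclm to the left.

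Against T cells, the other lymphocyte class with enough cells, few genes passed the test. It called 11 genes as higher in B cells (0.0705% of 15600) and 4 as lower (0.0256%). Without the 5 cells with T cell markers these counts were 12 (0.0772%) and 4 (0.0257%). An unadjusted p under 0.05 was found for 1460 genes, and DESeq2 called 994. The identity genes themselves were not called in the fit of all 30 libraries, although Cd79a stood at 1.24 CPM in T cells on average and Ms4a1 was present in no T cell. Their adjusted p were 0.443 for Cd79a, 0.465 for Cd79b and 0.156 for Ms4a1. In a fit of the B and T cell libraries alone, Cd79a and Ms4a1 were called (adjusted p = 0.0344 and 5.7e-04) and Cd79b was not (adjusted p = 0.192). Of the 12 class II genes none was called, 8 had an unadjusted p under 0.05 and DESeq2 called 6. H2-Aa had no read in any T cell.

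The genes named by size against T cells belong to several processes. Rnase6, a ribonuclease of the antimicrobial family, stood at 222.9 CPM in B cells of the female and 257.9 CPM in those of the male and had no read in T cells, at least 4892-fold higher against a floor of 3 counts over the T cells (adjusted p = 0.019 by edgeR). Lat2, an adaptor that receptor kinases phosphorylate, stood at 148.04 and 99.4 CPM in B cells and 0 and 0.167 CPM in T cells. Unc93b1 stood at 20.8 and 15.8 CPM in T cells, with a log2 fold change of 4.83 ± 0.91 (SE, adjusted p = 0.035 by edgeR). Cbfa2t3, a transcriptional co-repressor, Bcl11a and Blnk were also higher in B cells. Hp and Pla2g7 were called too, but each was present in only 5 B cells. Without the 17 cells with markers of another cell type, the adjusted p of Hp was 0.199 and the log2 fold change of Pla2g7 was 0.00 (adjusted p = 1).

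Lower in B cells than in T cells were Nrip1, a nuclear receptor co-regulator, Itm2c and Selplg. Selplg, the ligand of P-selectin on rolling leukocytes, stood at 259.2 and 257.9 CPM in B cells and 1111 and 1562 CPM in T cells (log2 fold change -2.51 ± 0.43, SE, adjusted p = 0.019 by edgeR). Nrip1 stood at 2.98 and 4.76 CPM against 157.2 and 89.3 CPM in T cells. Itm2c was not called without the 5 cells with T cell markers (adjusted p = 0.0703). Among cells of run DC35, Blnk, Bcl11a, Cbfa2t3, Hp, Itm2c and Selplg were not called (adjusted p = 0.0956, 0.0984, 0.193, 0.122, 0.582 and 0.184). Without the female T cell library no gene was called (994 with an unadjusted p under 0.05), without the male T cell library none was (893), and 7 were without the male and 11 without the female B cell library.

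Against the average of DC I and DC II, 0.795% of 15600 genes were higher in B cells and 47 genes (0.301%) were lower. With the 5 cells left out 0.721% were higher and 50 genes (0.322%) were lower. Receptor chains were higher for 6 of 8, not for Ighm (adjusted p = 0.185) or Iglc3 (adjusted p = 0.108). The factors Pax5, Ebf1, Spib and Ikzf3 and the precursor genes Rag1, Igll1, Vpreb1, Vpreb2, Vpreb3 and Il7r were higher as well. So were Cd93, Fcer2a, Ighd and Cxcr5 of the immature and naive list. Cd69 and the sensor gene Tlr7, which had no read in these dendritic cells, were higher, and Cd9 and the metallothionein gene Mt1 were lower. The genes lower in B cells by the largest amounts were Lmo1, Wfdc17, Axl, Sdc3, Spint1, Clec9a, Adam8 and Lsr. Axl, a receptor for dying cells, had no read in any B cell and stood at 128.2 CPM in the dendritic cells, at least 3588-fold higher there against the floor of 3 counts over the B cells. Clec9a, the receptor of cross-presenting dendritic cells, had 1 read in B cells and stood at 248.01 and 366.5 CPM in DC I.

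The dendritic cell comparison was sensitive to single libraries. The number of genes called was 71 without the female B cell library, 49 without the male one, 31 and 49 without the female and male DC I library, and 33 and 61 without the female and male DC II library. Of 41 genes examined in it, 34 changed their call in at least 1 of these 6 fits, with adjusted p of 0.0501 to 0.281. With the animal as a block, Lmo1, Wfdc17, Clec9a, Ighd, Spib, Rag1, Vpreb2 and Il7r were not called (adjusted p = 0.071, 0.0526, 0.0546, 0.059, 0.0621, 0.0652, 0.0565 and 0.0565), and against T cells Bcl11a was not (adjusted p = 0.0575). DESeq2 did not call Vpreb1, Vpreb3, Igll1, Rag1 or Vpreb2 (adjusted p = 0.26, 0.137, 0.157, 0.0605 and 0.0597). Lmo1, Mt1 and Il7r were not called without the 5 cells with T cell markers (adjusted p = 0.05, 0.0562 and 0.0792). In run DC35 alone Cd79a, Iglc2, Blnk, Spib, Fcer2a, Cd93, Rag1, Il7r, Mt1 and 7 of the 8 largest lower calls, all but Sdc3, did not pass (adjusted p of 0.0505 to 0.242).

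By size against all other subtypes, the largest calls were immunoglobulin and surrogate light chain genes. The 8 leading genes were Vpreb3 (log2 fold change 17.02 ± 1.07, SE), Iglv1, Igkc, Igll1, Igkv8-30, Iglc1 and 2 more kappa variable genes. The 8 genes lowest in B cells, of 35, were Ccrl2, Sema4a, Ttyh2, Lilr4b, Lima1, Nrip1, Rap2a and Itm2c. Nrip1 stood at 2.98 and 4.76 CPM against 114.8 and 124.05 CPM in the other cells, with a log2 fold change of -4.62 ± 0.75 (SE, adjusted p = 3.0e-04 by edgeR). Itm2c stood at 19.3 and 7.95 CPM against 233.5 and 166.8 CPM, with a log2 fold change of -3.82 ± 0.62 (SE, adjusted p = 3.0e-04 by edgeR). B cells had the lowest mean level of all 15 subtypes for both genes. Sema4a, a semaphorin, stood at 1.76 and 3.43 CPM against 147.6 and 103.9 CPM. Without the female B cell library Ccrl2, Sema4a, Ttyh2, Lima1 and Rap2a were not called (adjusted p = 0.128, 0.074, 0.348, 0.24 and 0.202), and without the male library Ccrl2, Ttyh2, Lilr4b, Lima1 and Rap2a were not (adjusted p = 0.0881, 0.173, 0.106, 0.0876 and 0.34). Among cells of run DC35, Itm2c, Sema4a, Ccrl2, Ttyh2, Lilr4b and Rap2a were not called (adjusted p = 0.12, 0.0823, 0.167, 0.129, 0.196 and 0.178). With cells thinned to 100000 reads Ccrl2, Lilr4b and Lima1 were not called (adjusted p = 1 for each). Iglv1, Igkv8-30 and Lilr4b did not pass against the pooled other cells (adjusted p = 0.1, 0.124 and 0.0584).

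Genes of the cell cycle were higher in B cells for 6 of 10 tested (Top2a, Birc5, Ube2c, Cenpf, Nusap1 and Rrm2), with a median log2 fold change of 3.20. None was called against T cells or against DC I and DC II, by edgeR or DESeq2, and none had an unadjusted p under 0.05 there. A cell was counted as cycling if at least 4 of the 10 genes had 5 reads or more after thinning to 100000 reads. By this rule 12 of 39 female B cells (30.8%, exact 95% interval 17% to 47.6%) and 7 of 25 male B cells (28%, 12.1% to 49.4%) were cycling. The 4 cells with precursor genes all were, as were 3 of the 5 cells with T cell markers and 12 of the 55 other cells (21.8%, 11.8% to 35%). The share over both animals was 29.7%, and 27.1% when the 5 cells were left out. Genes detected per thinned cell had a median of 2985 in the female and 3057 in the male. Top2a, Birc5, Ube2c, Cenpf and Rrm2 did not pass against the pooled other cells (adjusted p = 0.0748, 0.0701, 0.0779, 0.079 and 0.0547). Without the female library Top2a, Ube2c and Rrm2 were not called (adjusted p = 0.0994, 0.0669 and 0.208), and without the male library Top2a and Ube2c were not (adjusted p = 0.167 and 0.0867). Both also missed the threshold among cells of run DC35 (adjusted p = 0.0528 and 0.163).

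**Figure D5:**
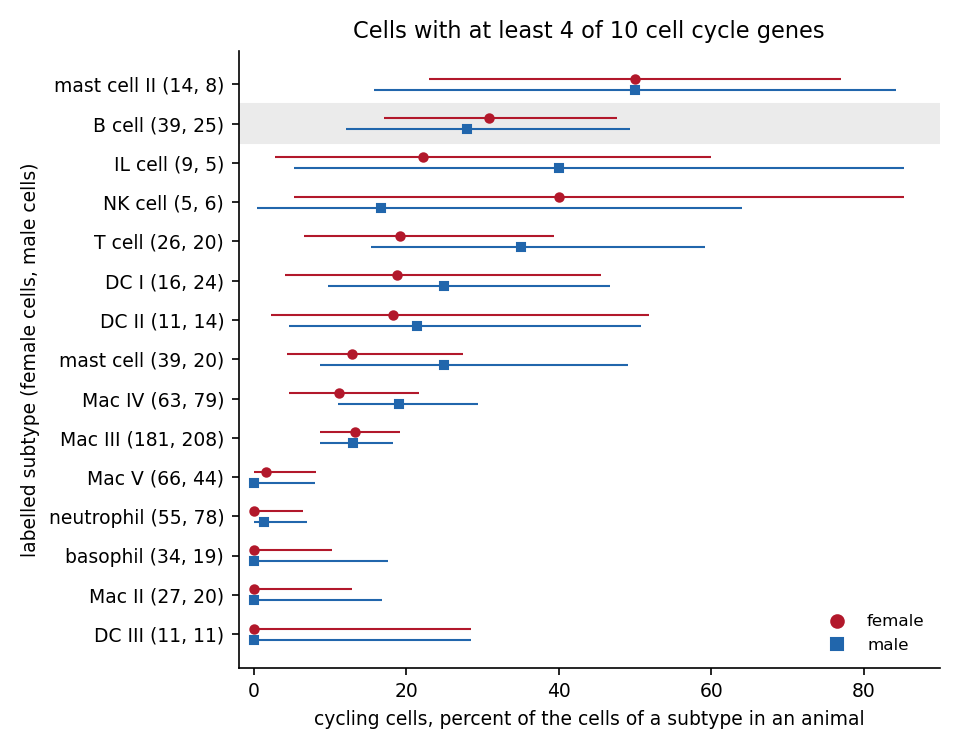
Share of cycling cells in percent for each subtype and animal, with exact 95% intervals and the number of cells in brackets. B cells lie at 30.8% in the female and 28% in the male, with intervals that overlap those of T cells. The subtype mast cell II lies higher, at 50% in each animal.

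The share of B cells was higher in value in the female, but with 1 animal of each sex no test was made. B cells made up 6.52% of 598 female cells (exact 95% interval 4.68% to 8.81%) and 4.44% of 585 male cells (2.92% to 6.44%). The female share was 4.17% on plate 1 and 8.88% on plate 2, and the male share 5.14% and 3.81%. Within run DC35, which both animals share, the female gave 8.88% (5.93% to 12.7%) and the male 4.48% (2.94% to 6.49%). The intervals of the 2 animals overlapped in both settings, which is no test of a difference. The shares were 6.21% and 3.95% when the 5 cells with T cell markers were left out. The totals include a few cells from other sorting gates. In the CD45 gate alone the shares were 6.59% of 592 female cells and 4.48% of 581 male cells. These are shares of sorted wells and not of the lung.

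Expression in B cells was compared between the animals by size alone, as genes at least 4-fold apart whichever female plate was set against whichever male plate. There were 61 genes higher in the female (1.29% of 4739) and 20 higher in the male (0.422%). Without the 5 cells with T cell markers the counts were 79 (1.64%) and 33 (0.687%). The sex-linked genes behaved as the labels say, with Xist at 265.6 CPM in the female and no read in the male, and Ddx3y at 104.3 CPM in the male and no read in the female. Of the others, Cd36, a scavenger receptor, stood at 412.1 and 58.1 CPM in the female and the male and was present in 25 cells. Cfp, the complement regulator properdin, stood at 213.6 and 26.1 CPM, and Ssr3, a subunit of the translocon complex, at 230.2 and 28.5 CPM. Higher in the male were Slc17a9, a nucleotide transporter, at 101.5 CPM, against 14.5 CPM in the female, and Apool at 101.1 against 11 CPM. With 1 animal of each sex, sex, animal and handling cannot be told apart.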

How the data were processed

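Read counts per gene were examined for 1183 single cells, of which 65 are labelled B cell. The values are the raw counts the authors deposited, whole numbers per gene and cell over 18072 genes. STAR 2.5.2b, HTSeq 0.10 and the build GRCh38, a human one, are named in the submitters' processing notes, with no role given, so no coordinates were taken from the counts. All columns of the table matched a sample by title (0 did not), and 0 pairs of cells had identical counts. Antisense, overlapping and near-identical genes, immunoglobulin genes among them, could not be separated.

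Counts were summed per animal and subtype, leaving out Mac I (1 cell), which gave 30 libraries of 15 subtypes. They were fitted with edgeR 4.0.16 in R 4.3.3 (TMM, filterByExpr, quasi-likelihood F test, 1 coefficient per subtype, no block), which left 15600 genes and a common biological coefficient of variation of 1.15. Adjusted p-values are Benjamini-Hochberg over all genes tested and measure only the spread between 2 animals. Alternatives were DESeq2 1.42.0, RLE size factors, no filter, the animal as a block, cells thinned to 100000 reads, run DC35 alone, the CD45 gate alone, only the libraries compared, the other cells pooled, and each library left out. Leaving out the 5 cells with T cell markers, or the 17 with markers of another type, and assigning light chains by variable genes were added after seeing the data. The animal pairs libraries by design, and the correlation of the female minus male difference in B cells with that in the other 14 subtypes ran from 0.0459 to 0.144.

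CPM are counts scaled to the summed library or cell. Shares have exact Clopper-Pearson 95% intervals, and a count of 0 allows 3 counts. No doublet caller was run, as cells were sorted into wells. The members and lists were chosen with earlier results of these data known, and some genes of the lists are not reported here and are left out of list counts and of the label check. Genes named are up to 6 per list by mean level, or those at or near 0. Up to 8 per direction and comparison were named by size, among calls with 50 CPM or more. Gm, mitochondrial, ribosomal, Rik and pseudogene names were left out. Against T cells and against DC I and DC II, the libraries of a gene named by size did not overlap. Against the other subtypes, each B cell library only had to lie on the same side of the animal's own pooled other cells. Between animals the genes named are at least 4-fold apart in every plate pairing. Called list members outside this rule, and H2-DMb1, Ctss, Cdkn1a, Sod1 and Gpx1, were named after their values were seen. The fits and counting rules were tested on simulated data. Promoters come from RefSeq, build GRCm38.p6.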

Additional observations from a re-analysis of the deposited data

How the results depend on the processing

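The genes called against the other subtypes, 10.3% of those tested, fell to 7.64% with cells thinned to 100000 reads, to 3.6% against the pooled other cells, where 190 of 582 genes were also called over subtypes, and to 5.25% to 5.34% without a B cell library. DESeq2 called 8.94%, and 863 of its genes were shared. Against T cells the 0.0962% called became 0.205% in run DC35 alone, 5.52% with DESeq2, 0.419% without the 17 cells with markers of another type, 1.1% in the libraries compared alone, 0.298% after thinning and 0 to 0.0664% without 1 library. Against DC I and DC II the 1.1% called became 0.476% in run DC35 alone, 9.2% with DESeq2, 2.17% without the 17 cells, 2.45% in the libraries compared alone, 1.98% after thinning and 0.186% to 0.429% without 1 library. Where an arm kept 1 library, it was assumed to vary like the other groups. With the animal as a replicate block, 7.78%, 0.115% and 0.987% were called in the 3 comparisons, and no named call was lost beyond those given in the report. The share of calls higher in B cells against DC I and DC II was 72.5%, and 57.7% with DESeq2, 40.1% without the 17 cells, 44.6% in the libraries compared alone and 61.3% after thinning. Against T cells it was 73.3%, and 23.1% without the 17 cells, 87.5% after thinning and 96.8% in run DC35 alone. The direction of Hmox1 turned, with a log2 fold change of -10.67 without the 17 cells and -6.46 against the pooled other cells. Without 1 B cell library its log2 fold change ran from -10.67 to 2.19. The direction of Ctss and H2-DMb1 turned against the pooled other cells (-2.86 and -2.36). The log2 fold change of Pla2g7 against T cells fell to 0.00 without the 17 cells. Of 1220 alternative values of named genes against the other subtypes, 1078 kept direction and call, 15 gained the call, 5 reversed and all the rest lost the call. Against T cells 47 values for 16 genes lost the call, and against DC I and DC II 210 of 652 for 41 genes did. The cause of these changes was not tested. The share of B cells in the female, 6.52%, was 8.88% in run DC35 alone, 4.17% on plate 1 and 8.88% on plate 2. Depth of 88746 reads or more per cell limits what can be said of low genes in single cells.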
